A study of Neurospora crassa with 14 samples.

Results

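The transcript changes of Neurospora crassa under Trichostatin A (TSA) were set against those of a deletion of eaf-3. Neurospora crassa is a filamentous fungus, and mRNA was sequenced from its mycelium. Every gene listed in both of the authors' deposited tables was a member of the comparison, which gave 9380 of the 9552 genes listed in any table of the series. There were 9455 genes in the TSA table and 9477 genes in that of eaf-3. For each gene the log2 fold change of the eaf-3 deletion was subtracted from that of TSA. A positive difference means a higher log2 fold change with TSA than with the deletion. No measured change was used to choose the genes.

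Histone deacetylases remove acetyl groups from histone tails, and chromatin that has lost these groups is usually read less. RPD3 is such an enzyme and works in a large and a small complex in yeast. Eaf3 is a yeast subunit of the small RPD3 complex and of an acetyltransferase complex, and its chromodomain binds methylated lysine 36 of histone H3. TSA blocks the active site of the zinc-dependent deacetylases as a class and leaves the sirtuins, which use NAD, largely untouched. The comparison therefore sets a drug against many deacetylases beside the loss of one protein that serves some of their complexes.

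The TSA group held 2 libraries of cultures given 5 ul of TSA, and its control held 2 libraries given 0 ul. All 4 came from 1 strain, N6279, which is his-3; pNCU05173::hph; pNCU07152::nat-1, and are labelled as biological replicates. This strain needs histidine, which was added to its medium, and carries resistance genes under the promoters of NCU05173 and NCU07152. The eaf-3 group held 2 libraries deleted for eaf-3 (NCU06788), from strains N5278 and N6169, and its control held 2 wild type libraries, from strains N3752 and N3753. All groups were grown alike, in 5 ml of shaken minimal medium with sucrose for 16 h at 32 °C. The sources used here give neither the concentration of the TSA stock nor its solvent. The drug, the strain and the histidine differ together between the contrasts, and their parts in a difference cannot be told apart. No values per library were used here, so the depth of each library is unknown and the spread between 2 libraries enters only through the deposited p-values. Below, ± gives a standard error, worked out for each change from its deposited p-value and for each difference from its 2 changes.

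The deleted gene was read first. In the authors' deposited tables NCU06788 changed by 0.15 ± 0.36 with TSA (adjusted p = 0.878) and fell by 8.95 ± 1.48 in the strains labelled as deleted for it (adjusted p = 3.71e-08). Neither promoter gene of the markers was among the joined genes (0 of 2).

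More genes passed the test in the eaf-3 deletion than with TSA. With TSA 764 of the 8720 joined genes that have an adjusted p in the authors' deposited table passed 0.05 (8.76%), 448 higher (5.14%) and 316 lower (3.62%). In the eaf-3 deletion 2884 of 9087 passed (31.7%), 1840 higher (20.2%) and 1044 lower (11.5%), in its deposited table. The standard errors differed as well, with a median of 0.415 in the TSA table and 0.292 in the eaf-3 table, and the TSA one was the larger in 6394 of 8705 genes (73.5%). A larger number of calls is therefore not by itself a wider response, and genes were compared by the test of the difference.

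The difference of the changes passed the test in 1134 of 9317 genes (12.2%; normal test, Benjamini-Hochberg adjusted p under 0.05). It was positive in 283 (3.04%) and negative in 851 (9.13%), so 25.0% of the passing differences were positive. A positive difference need not be a rise with TSA. In 167 genes it came with a fall in the deletion and no call with TSA. Likewise a negative difference need not be a fall with TSA. In 546 genes it came with a rise in the deletion and no call with TSA. The split into positive and negative differences rests on where each table has its zero. The median change was -0.10 with TSA and 0.08 in the eaf-3 deletion, and when each table was centred on its own median, a shift of -0.18 in the difference, 472 were positive and 699 negative, or 40.3% positive. Among the genes named below with a passing difference, those of NCU00811, NCU04284, NCU04930, NCU10572, ars-1, con-8, pin-c, gul-1, acw-7 and mus-11 no longer passed after centring. When the larger of the standard errors was used for both changes, the same genes except pin-c, and also nuo21.3c, nca-3, NCU07235, mek-1, cys-3, pks-3, acon-3, nde-3, mlh-2, cat-4, NCU07032, NCU08834 and NCU08836, did not pass.

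**Figure D1:**
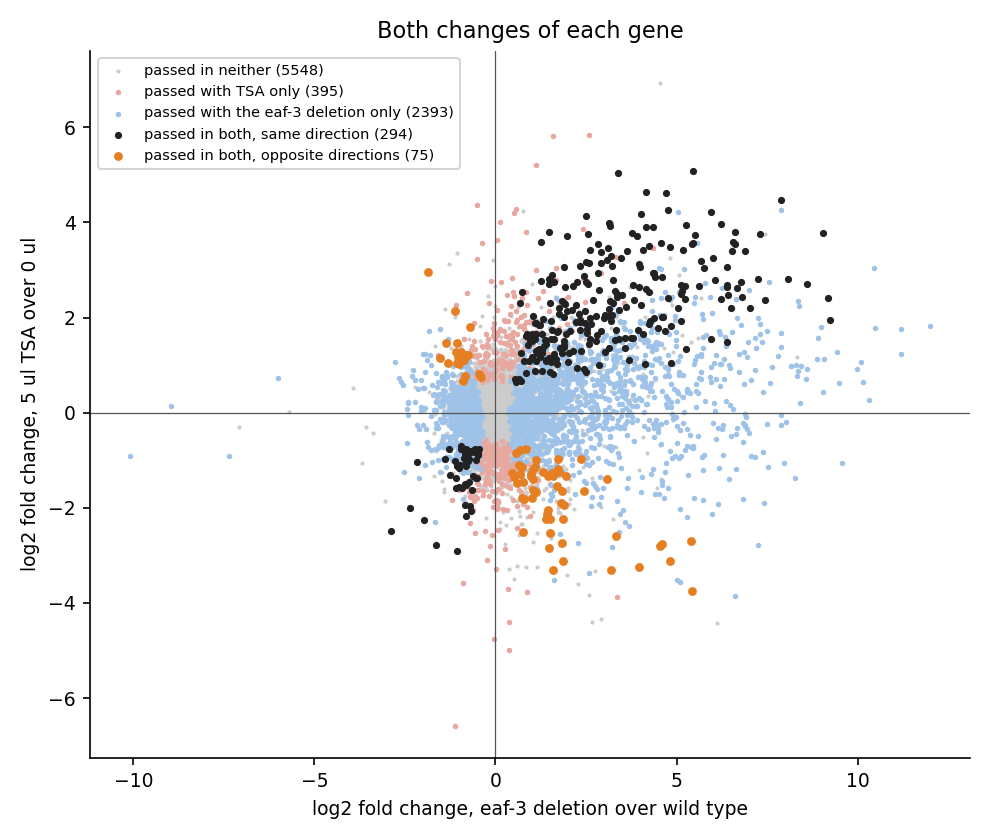
Each point is 1 of the 8705 genes with an adjusted p in both deposited tables, with the log2 fold change of 5 ul TSA over 0 ul on the y axis and that of the eaf-3 deletion over wild type on the x axis. Black points (294) passed in both in the same direction and lie mostly in the upper right, orange points (75) passed in opposite directions, and the blue points that passed with the deletion only spread far to the right at TSA changes around 0.

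Among the 8705 genes with an adjusted p in both tables, 245 were higher in both (2.81%), which is 54.7% of the 448 genes higher with TSA and 14.3% of the 1718 genes higher in the eaf-3 deletion. Lower in both were 49 genes (0.563%), 15.5% of the 316 genes lower with TSA and 4.69% of the 1044 lower in the deletion. Opposite calls were made for 75 genes. Of these, 20 were higher with TSA and lower in the deletion (0.23%), and 55 were lower with TSA and higher in the deletion (0.632%). The difference passed the test in all 20 and in all 55, which adds little, since it is built from the same opposite changes that chose these genes.

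The direction of the TSA change went with different values in the other table. The genes higher with TSA had a median change of 1.35 in the eaf-3 deletion, and 81.7% of them lay above 0 there. The genes lower with TSA had a median of 0.01 in the deletion, and 50.6% lay above 0, beside 51.6% of the genes that did not pass with TSA. Seen from the deletion, the genes higher in it had a median TSA change of 0.34, with 63.4% above 0. The genes lower in it had a median TSA change of -0.12, with 38.3% above 0, beside 40.4% of the genes that did not pass in the deletion. Across all 8705 genes Pearson's r of the changes was 0.31 and Spearman's rho 0.19, given as a description, since genes are not independent replicates. In the same tables r was 0.31 between TSA and the sds3 deletion, 0.30 with rlp1 and 0.22 with rlp2, where all 4 deletions share their wild type libraries.

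Genes that rose in both comparisons were led by genes without a symbol, as most genes are, since 1113 of the 9380 joined genes had one. In the authors' deposited tables NCU16482 rose by 5.07 ± 0.66 with TSA and by 5.46 ± 1.47 in the eaf-3 deletion. NCU17186 rose by 4.62 ± 0.65 with TSA and by 4.72 ± 1.15 in the deletion, and NCU05764 by 4.64 ± 0.76 and 4.15 ± 1.14, in the deposited tables. For these 3 genes the changes differed by less than 1 standard error of the difference. NCU00607 rose by 4.23 ± 0.55 with TSA and by 5.96 ± 0.70 in the deletion, and NCU01109 by 4.47 ± 1.13 and 7.88 ± 1.23, in the authors' deposited tables, with differences that did not pass (adjusted p = 0.205 and 0.187). NCU03478 rose by 4.26 ± 0.89 with TSA and 4.76 ± 0.53 in the deletion in the same deposited tables.

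Over the 245 genes the median rise was 2.15 with TSA and 2.85 in the deletion. The difference was negative and passed in 46 of them, and positive and passed in 4. Those 4 were named after their values were seen. In the authors' deposited tables NCU09185 rose by 2.54 ± 0.26 with TSA and 0.72 ± 0.29 in the deletion (difference 1.81 ± 0.39, adjusted p = 0.000146). NCU05105 rose by 3.58 ± 0.49 with TSA and 1.27 ± 0.46 in the deletion, and NCU07235 by 3.81 ± 0.62 and 1.48 ± 0.55, in those deposited tables. The fourth was nca-3, which encodes a calcium-transporting ATPase and rose by 2.31 ± 0.52 with TSA and 0.68 ± 0.23 in the deletion in the deposited tables.

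Some genes with a symbol rose in both comparisons as well. The perithecial polyketide synthase gene per-1 rose by 3.40 ± 0.58 with TSA and by 6.89 ± 0.80 in the eaf-3 deletion in the authors' deposited tables (difference -3.49 ± 0.99, adjusted p = 0.00675). The pheromone receptor gene pre-2 rose by 2.38 ± 0.55 with TSA and 6.23 ± 0.80 in the deletion (deposited tables; difference -3.85 ± 0.97, adjusted p = 0.00188). The arylsulfatase gene ars-1 rose by 1.66 ± 0.54 with TSA and 4.08 ± 0.70 in the deletion in the deposited tables. In these genes the rise in the deletion was the larger. The gene gh5-1, of the glycoside hydrolase family that holds endoglucanases, rose by 3.21 ± 0.60 with TSA and 3.07 ± 0.59 in the deletion in the authors' deposited tables. The catalase-peroxidase gene cat-2 rose by 1.14 ± 0.36 with TSA and 1.49 ± 0.31 in the deletion, and qip, an exonuclease gene of the quelling pathway, by 0.71 ± 0.24 and 0.66 ± 0.21, in the deposited tables. The differences were 0.13 ± 0.84 for gh5-1, -0.35 ± 0.48 for cat-2 and 0.05 ± 0.32 for qip, and none passed.

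Fewer genes fell in both. NCU09648 fell by 2.48 ± 0.73 with TSA and fell by 2.87 ± 0.59 in the eaf-3 deletion, and NCU04805 by 2.26 ± 0.58 and 1.99 ± 0.49 in the authors' deposited tables. The chitinase gene chit-1 fell by 2.77 ± 0.57 with TSA and by 1.63 ± 0.58 in the deletion in the deposited tables. The other named genes of this class were NCU02843, NCU03082 and NCU06758, with deposited TSA changes between -2.01 and -1.31 and eaf-3 changes between -2.36 and -1.09. The difference passed in 1 of the 49, NCU00811, chosen after its values were seen, at -2.07 ± 0.46 with TSA and -0.67 ± 0.21 in the deletion in the deposited tables.

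**Figure D2:**
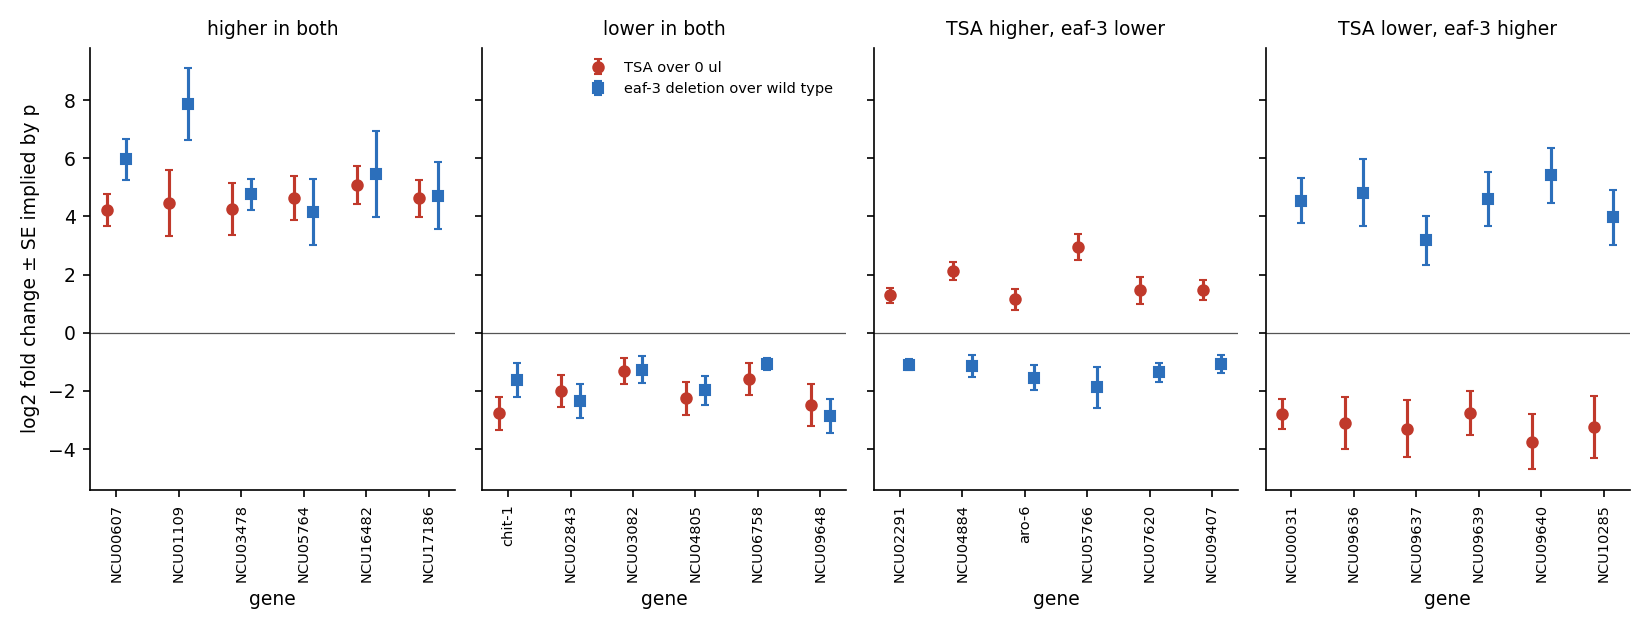
The y axis is the log2 fold change with its implied standard error for 5 ul TSA over 0 ul (red circles) and the eaf-3 deletion over wild type (blue squares), for the 6 genes with the largest smaller change in each class of calls. In the 2 left panels both points lie on the same side of 0, and in the 2 right panels every pair lies on opposite sides, with red changes of 1.15 to 2.95 beside blue changes of -1.87 to -1.07, and red changes of -3.76 to -2.77 beside blue changes of 3.18 to 5.42.

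Genes that rose with TSA and fell in the eaf-3 deletion included enzymes of biosynthesis. NCU05766 rose by 2.95 ± 0.46 with TSA and fell by 1.87 ± 0.71 in the deletion in the authors' deposited tables (difference 4.82 ± 0.84, adjusted p = 1.28e-06). In the deposited tables of the other deletions, which share the wild type libraries with that of eaf-3, the same gene rose by 6.18 ± 0.45 without sds3, 6.11 ± 0.45 without rlp1 and 4.98 ± 0.45 without rlp2. NCU02291 rose by 1.28 ± 0.24 with TSA and fell by 1.10 ± 0.20 in the eaf-3 deletion in the deposited tables (difference 2.38 ± 0.31, adjusted p = 1.52e-11), the smallest p among positive differences at a deposited average of at least 20.

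NCU04884 and its neighbour on linkage group IV, gh18-4, of the chitinase family, both had positive differences. NCU04884 rose by 2.13 ± 0.32 with TSA and fell by 1.13 ± 0.38 in the eaf-3 deletion in the authors' deposited tables. The gene gh18-4 rose by 3.23 ± 0.57 with TSA and stood at -0.50 ± 0.50 in the deletion in the deposited tables, where it did not pass (difference 3.73 ± 0.75, adjusted p = 4.58e-05). In the deposited tables of sds3 and rlp1 gh18-4 rose by 3.09 ± 0.42 and 3.96 ± 0.41, and NCU04884 by 0.90 ± 0.36 and 1.77 ± 0.36. Without rlp2 gh18-4 rose by 1.49 ± 0.43 and NCU04884 by 1.01 ± 0.36, as deposited. The TSA rises of both genes thus stand beside rises in those deletions and beside negative values in that of eaf-3.

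The biosynthetic genes of this class were aro-6, for the first step of the shikimate pathway to aromatic amino acids, leu-4, for the first step of leucine synthesis, and ad-4, for adenylosuccinate lyase of purine synthesis. In the authors' deposited tables aro-6 rose by 1.15 ± 0.36 with TSA and fell by 1.54 ± 0.44 in the eaf-3 deletion (difference 2.69 ± 0.57, adjusted p = 0.000138). In those tables leu-4 rose by 1.27 ± 0.37 with TSA and fell by 0.95 ± 0.30 in the deletion, and ad-4 rose by 1.05 ± 0.31 and fell by 1.06 ± 0.31, as deposited. The gene ppm-3 rose by 1.03 ± 0.21 with TSA and fell by 1.00 ± 0.28 in the deletion, and NCU08981 rose by 1.79 ± 0.34 and fell by 0.69 ± 0.22, in the deposited tables. NCU07620 and NCU09407 both rose by 1.46 with TSA (± 0.46 and ± 0.34) and fell by 1.36 ± 0.32 and 1.07 ± 0.31 in the deletion in the deposited tables.

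Genes that fell with TSA and rose in the eaf-3 deletion were led by genes at a chromosome end, described next, and by NCU00031. NCU00031 fell by 2.79 ± 0.52 with TSA and rose by 4.54 ± 0.77 in the deletion in the authors' deposited tables (difference -7.34 ± 0.93, adjusted p = 1.94e-12). NCU09152, at deposited averages of 9605 in the TSA table and 12826 in the eaf-3 table, fell by 1.25 ± 0.20 with TSA and rose by 1.76 ± 0.22 in the deletion (difference -3.01 ± 0.30, adjusted p = 1.85e-20). The cellodextrin transporter gene cdt-1 fell by 1.24 ± 0.40 with TSA and rose by 1.31 ± 0.30 in the deletion, and gh10-3, of a xylanase family, fell by 1.55 ± 0.51 and rose by 1.68 ± 0.56, in the deposited tables. The gene ts fell by 1.33 ± 0.36 with TSA and rose by 1.60 ± 0.36 in the deletion in the deposited tables.

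The longest stretch of neighbouring genes with the same sign of a passing difference lay at an end of linkage group IV. The 9 outermost genes there, NCU10285, NCU09635, NCU09636, NCU09637, pks-5, NCU09639, NCU09640, NCU09641 and NCU10572, all had a negative difference that passed, from -9.18 ± 1.34 for NCU09640 to -2.74 ± 0.98 for NCU10572. In the authors' deposited tables their TSA changes ran from -3.86 ± 1.02 for the polyketide synthase gene pks-5 to -1.02 ± 0.54 for NCU10572. Their eaf-3 changes ran from 1.72 ± 0.82 for NCU10572 to 5.42 ± 0.95 for NCU09640 in the deposited tables. All 9 TSA changes lay below all 9 eaf-3 changes, which in large part restates how the stretch was chosen, by its negative differences. The deposited averages of all 9 were higher in the TSA table. They were 19370 beside 2020 in the eaf-3 table for NCU09637, and 364 beside 97.9 for NCU09640. The part of these levels in the opposite changes was not tested.

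Of the 9 genes 6 were called in both tables, lower with TSA and higher in the eaf-3 deletion. NCU09640 fell by 3.76 ± 0.95 with TSA (adjusted p = 0.00227) and rose by 5.42 ± 0.95 in the deletion (adjusted p = 2.61e-07) in the authors' deposited tables. NCU09641 fell by 2.58 ± 0.58 with TSA (adjusted p = 0.00036) and rose by 3.34 ± 0.74 in the deletion (adjusted p = 7e-05) in the deposited tables. The other 4 were NCU10285, NCU09636, NCU09637 and NCU09639. In the deposited tables pks-5 fell with TSA (adjusted p = 0.00398) and stood at 3.35 ± 1.60 in the deletion (adjusted p = 0.0947), NCU09635 stood at -1.51 ± 0.77 with TSA (adjusted p = 0.246) and rose by 4.60 ± 1.02 in the deletion, and NCU10572 passed in neither.

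The stretch ended sharply. The tenth gene from the end, NCU09642, stood at 0.27 ± 0.38 with TSA and fell by 0.45 ± 0.17 in the eaf-3 deletion (adjusted p = 0.0284) in the authors' deposited tables. Its difference of 0.72 ± 0.41 did not pass. None of the 9 genes passed in the deposited tables of the sds3, rlp1 and rlp2 deletions. Their lowest value in those tables was -3.53 for pks-5 without sds3 (adjusted p = 0.109), and their highest was 2.23 for NCU09640 without rlp2 (adjusted p = 0.12). Further in, NCU09648, gene 16 from the end, is the gene named first above among those that fell in both, and NCU09650, gene 18, rose by 4.88 ± 0.77 in the deletion and stood at -0.95 ± 1.10 with TSA in the authors' deposited tables.

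**Figure D3:**
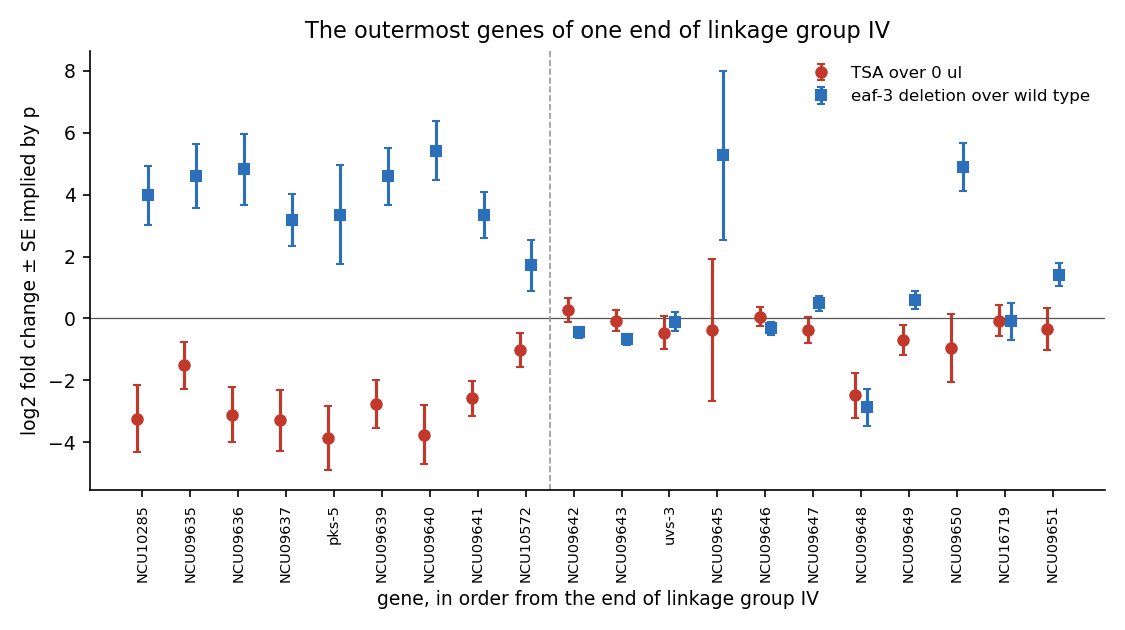
The 20 outermost genes of 1 end of linkage group IV stand in order on the x axis, with the log2 fold change and its implied standard error on the y axis for 5 ul TSA over 0 ul (red circles) and the eaf-3 deletion over wild type (blue squares). To the left of the dashed line the 9 outermost genes lie below 0 with TSA, from -3.86 to -1.02, and above 0 in the deletion, from 1.72 to 5.42. To its right NCU09642 lies at 0.27 with TSA and at -0.45 in the deletion.

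Runs of at least 3 neighbouring genes were mostly of negative differences, which passed in 9.13% of all genes, beside 3.04% for positive ones. More passing genes give more runs by their number alone. The number of runs that these shares would give without regard to position was not worked out. Of the 851 genes with a negative difference that passed, 115 lay in 31 such runs, and of the 283 with a positive one 4 lay in 1 run. After centring 86 of 699 lay in 23 negative runs and 10 of 472 in 3 positive ones. Of the 245 genes higher in both tables, 19 lay in 6 runs. The positive run held cyc-1, the cytochrome c gene, with NCU01807, NCU01806 and NCU01805, which stood between 0.13 and 1.00 with TSA and fell by 1.10 to 2.05 in the eaf-3 deletion in the authors' deposited tables. Among the runs of shared rises, NCU02865, NCU02864 and NCU16482 rose by 2.78 to 5.07 with TSA and by 5.46 to 6.38 in the deletion, and NCU09167 to NCU09170 by 1.12 to 3.16 and 2.15 to 3.68, in the deposited tables.

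Other negative runs differed in their TSA changes. In the authors' deposited tables NCU08438 to NCU08441 lay below 0 with TSA, from -2.47 to -0.91, and NCU04928, NCU04930 and NCU04931 from -3.12 to -1.24, while the runs described next lay on both sides of 0. At an end of linkage group II the 5 outermost genes, NCU09634 to NCU09630, rose by 2.46 to 7.49 in the eaf-3 deletion, beside TSA changes of -1.97 to 0.91, in the authors' deposited tables. One of them, NCU09632, rose with TSA as well, by 0.91 ± 0.29 beside 2.46 ± 0.35 in the deletion, as deposited. On linkage group IV the genes NCU08837 to NCU08834 rose by 8.06 to 9.89 in the deletion, with TSA changes of -1.83 to 1.06 whose standard errors were 1.06 to 2.41 in the deposited tables. A run from NCU07032 to NCU07036 on linkage group IV, which holds gh18-9 of the chitinase family, mixed TSA directions. In the deposited tables NCU07033 fell by 2.69 ± 0.76 with TSA and rose by 5.41 ± 0.93 in the deletion, and gh18-9 stood at -0.96 ± 0.39 with TSA and rose by 2.84 ± 0.43.

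The ends as a class differed between the comparisons. Among 676 joined genes within the 50 outermost of each chromosome end, 41 rose and 41 fell with TSA (6.61% of tested genes each). In the eaf-3 deletion 197 rose (30.4%) and 58 fell (8.95%). The shares of all genes were 5.14% and 3.62% with TSA, and 20.2% and 11.5% in the deletion. The median change was -0.12 with TSA and 0.48 in the deletion, beside -0.10 and 0.08 over all genes. In the outermost 10 genes of each end 5.43% of tested genes rose and 8.53% fell with TSA, while 44.0% rose and 5.22% fell in the deletion. Of the 11 genes that fell with TSA there, 7 belong to the stretch on linkage group IV. Without its 9 genes, an alternative chosen after the data were seen, 5.83% rose and 3.33% fell with TSA, and 41.6% rose and 5.6% fell in the deletion. Over 400 genes from an end, 3.71% rose and 3.39% fell with TSA, and 15.9% rose and 11.9% fell in the deletion. The highest share of rises with TSA, 9.19%, lay 51 to 100 genes from an end. Without the genes at the ends 268 positive and 733 negative differences passed, an alternative chosen after the data were seen.

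The deposited average also went with the calls. This average is a normalised signal over libraries that the sources used here do not name, so a gene that rose has a higher average through its own rise. At eaf-3 averages of 10 to 100, 11.3% of tested genes rose with TSA and 45.6% in the deletion, and the difference was negative and passed in 21.8%. At averages of at least 3000, 1.07% rose and 8.66% fell with TSA, while 12.8% rose and 16.6% fell in the deletion. The part of expression level in the counts by gene group was not tested.

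**Figure D4:**
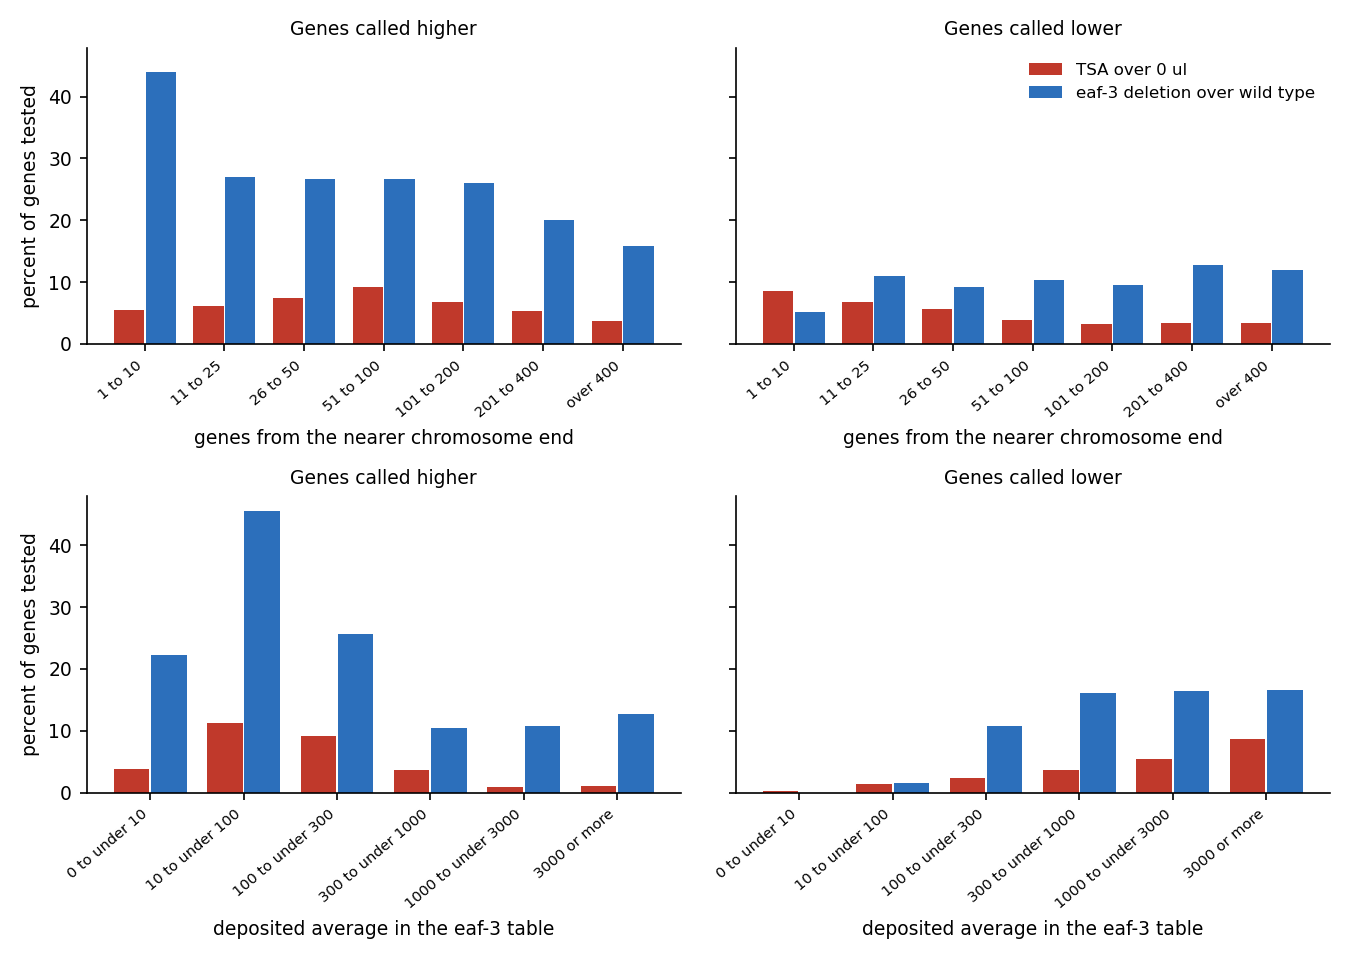
Bars give the percent of tested genes called higher (left) or lower (right) with 5 ul TSA over 0 ul (red) and with the eaf-3 deletion over wild type (blue), by the number of genes from the nearer chromosome end (top) and by the deposited average in the eaf-3 table (bottom). The blue share of rises is highest in the outermost 10 genes (44.0%) and at averages of 10 to 100 (45.6%), while the red share of falls is 8.53% in the outermost 10 genes, or 3.33% without the stretch of 9 genes on linkage group IV, and 8.66% at averages of at least 3000.

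Genes of the sexual cycle were among the strongest negative differences. The list of mating and sexual development held 18 genes, of which 3 rose and 2 fell with TSA, and 6 rose (33.3%) and none fell in the eaf-3 deletion. The difference passed in 8, negative in 7 (38.9%) and positive in 1 (5.56%). Over all genes 5.14% rose and 3.62% fell with TSA, and 20.2% rose and 11.5% fell in the deletion. A passing difference was positive in 3.04% of all genes and negative in 9.13%. The counts of this list and of the lists below are to be read beside these shares. The median change of the list was -0.38 with TSA and 0.73 in the deletion. The meiotic silencing gene sms-2, which encodes an Argonaute protein, stood at 0.27 ± 0.68 with TSA and rose by 10.32 ± 1.07 in the deletion in the authors' deposited tables (difference -10.05 ± 1.27, adjusted p = 2.38e-12). Its deposited average was 18.5 in the TSA table and 237 in the eaf-3 table. The gene sad-1, for an RNA-directed RNA polymerase of the same pathway, stood at -0.35 ± 0.96 with TSA and rose by 6.25 ± 0.88 in the deletion in the deposited tables.

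The perithecial gene poi-2 stood at -0.93 ± 0.86 with TSA and rose by 5.70 ± 0.42 in the eaf-3 deletion in the authors' deposited tables. The ascus development gene asd-1 stood at -0.72 ± 0.55 with TSA and rose by 3.10 ± 0.50 in the deletion, and its neighbour asd-3 stood at -0.11 ± 0.48 and rose by 3.07 ± 0.54, as deposited. The velvet regulator gene ve-1 fell by 1.07 ± 0.25 with TSA and stood at 0.11 ± 0.18 in the deletion in the deposited tables. The positive difference was that of app, which encodes an abundant perithecial protein and rose by 3.57 ± 0.81 with TSA while it stood at -0.38 ± 0.47 in the deletion, as deposited (difference 3.95 ± 0.94, adjusted p = 0.000796). The pheromone precursor gene mfa-1 rose by 2.31 ± 0.47 with TSA and stood at 3.54 ± 1.53 in the deletion in the deposited tables, with a difference that did not pass.

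The list of silencing by small RNA shares sms-2 and sad-1 with the sexual list. Of its 10 genes 1 rose with TSA, qip, and 7 rose in the eaf-3 deletion (70%, beside 20.2% of all genes). A negative difference passed in 4 (40%, beside 9.13%), sms-2, sad-1, sad-2 and rpa-3. By the authors' deposited tables sad-2 stood at 0.97 ± 1.21 with TSA and rose by 7.64 ± 1.58 in the deletion, at averages under 20. The replication protein A gene rpa-3 stood at -0.69 ± 0.34 with TSA and rose by 1.35 ± 0.28 in the deletion in the deposited tables.

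Vegetative incompatibility genes control whether hyphae of different strains fuse and survive. Of 6 listed none passed with TSA, 4 rose in the eaf-3 deletion and the same 4 had a negative difference (66.7% each). Over all genes 20.2% rose in the deletion and 9.13% had a negative difference that passed. The gene het-6 stood at 0.31 ± 0.32 with TSA and rose by 1.96 ± 0.33 in the deletion, and the regulator gene vib-1 stood at -0.60 ± 0.24 and rose by 0.57 ± 0.18, in the authors' deposited tables. The others were un-24 and pin-c, and the difference of pin-c was -1.34 after centring.

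Polyketide synthase genes, which make the carbon skeletons of pigments and other secondary metabolites, moved in several directions. Of 7, 1 rose (per-1) and 1 fell (pks-5) with TSA, and 5 rose and 1 fell in the eaf-3 deletion. The 5 are 71.4% of the list, beside 20.2% of all genes that rose in the deletion. The difference was negative in 3 (42.9%, beside 9.13% of all genes), per-1, pks-5 and pks-1, and positive in pks-3. By the authors' deposited tables pks-1 stood at 0.07 ± 0.29 with TSA and rose by 1.65 ± 0.29 in the deletion, and pks-3 stood at 0.65 ± 0.61 and fell by 1.58 ± 0.28.

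Glycoside hydrolases, which cut polysaccharides of plant and fungal cell walls, were the largest group. Of 84 listed 6 rose and 5 fell with TSA, and 30 rose (35.7%) and 10 fell (11.9%) in the eaf-3 deletion, beside 20.2% and 11.5% of all genes. The difference was positive in 4 (4.76%) and negative in 15 (17.9%), beside 3.04% and 9.13% of all genes. The polygalacturonase-family gene gh28-1 stood at -1.70 ± 0.73 with TSA and rose by 4.42 ± 0.82 in the deletion in the authors' deposited tables (difference -6.12 ± 1.10, adjusted p = 2.84e-06). The chitinase-family gene gh18-8 stood at 1.72 ± 0.63 with TSA and rose by 6.18 ± 0.55 in the deletion, as deposited. The chitinase-family gene gh18-6 fell by 2.88 ± 0.63 with TSA and stood at 0.26 ± 0.32 in the deletion, and gh61-9, of the lytic polysaccharide monooxygenases, fell by 2.58 ± 0.50 and stood at -0.10 ± 0.29, in the deposited tables.

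Among genes of nutrient uptake most calls were made in the deletion, as over all genes, where 31.7% passed in it and 8.76% with TSA. Of 20 nitrogen, sulfur and phosphorus genes 1 rose with TSA, ars-1, while 7 rose (35%) and 3 fell (15%) in the eaf-3 deletion. A negative difference passed in 5 (25%, beside 9.13% of all genes), or 3 with the larger standard error. The alkaline phosphatase gene pho-2 stood at -0.51 ± 0.41 with TSA and rose by 3.17 ± 0.32 in the deletion in the authors' deposited tables (difference -3.67 ± 0.52, adjusted p = 6.8e-10). The phosphate permease genes pho-4 and pho-5 stood at -1.11 ± 0.41 and -0.29 ± 0.64 with TSA and rose by 1.11 ± 0.44 and 3.46 ± 0.50 in the deletion, as deposited. The sulfur regulator gene cys-3 stood at -0.79 ± 0.36 with TSA and rose by 0.65 ± 0.19 in the deletion in the deposited tables.

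Conidiation genes mark spore-forming tissue in the mycelium. Of 22 conidiation and clock-controlled genes 1 rose and 2 fell with TSA, and 7 rose (31.8%, beside 20.2% of all genes) and none fell in the eaf-3 deletion. The difference was positive in 1, acon-3, and negative in 4 (18.2%, beside 9.13% of all genes). The gene ccg-1 stood at -0.27 ± 0.34 with TSA and rose by 2.86 ± 0.58 in the deletion, and con-8 stood at 0.57 ± 0.63 and rose by 2.97 ± 0.56, in the authors' deposited tables. The riser with TSA was con-10, at 2.44 ± 0.56, beside 1.99 ± 0.96 in the deletion, which did not pass, as deposited. Centring left 2 of the 4 negative differences, and the larger standard error left 1. Shifts in the share of conidiating tissue and in RNA per cell cannot be told apart in these bulk samples.

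Genes of energy metabolism were among the positive differences. Of 38 respiratory chain and ATP synthase genes none passed with TSA, beside 8.76% of all genes. In the eaf-3 deletion 20 fell (52.6%, beside 11.5% of all genes), and 8 had a positive difference (21.1%, beside 3.04%). The median change was -0.27 with TSA and -0.54 in the deletion. The complex III subunit gene qcr7 stood at 0.52 ± 0.39 with TSA and fell by 2.01 ± 0.46 in the deletion in the authors' deposited tables (difference 2.52 ± 0.61, adjusted p = 0.000943). The Rieske protein gene fes-1 stood at 0.38 ± 0.28 with TSA and fell by 1.29 ± 0.36, and cyc-1 stood at 1.00 ± 0.67 and fell by 1.77 ± 0.60, in the deposited tables. Complex I gave nuo24, nuo49, nuo51, nuo78 and nuo21.3c. For nuo21.3c the deposited TSA change of -0.06 ± 0.21 had a 95% interval within 0.5 of 0, beside a fall of 1.43 ± 0.36 in the deletion.

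Of 8 alternative oxidase and NADH dehydrogenase genes, which bypass the proton-pumping complexes, none passed with TSA. In the eaf-3 deletion 1 rose (12.5%) and 4 fell (50%), beside 20.2% and 11.5% of all genes. A positive difference passed in 2 genes (25%, beside 3.04%). These were ndi-1, at 0.45 ± 0.44 with TSA and -1.39 ± 0.32 in the deletion, and nde-3, at 0.50 ± 0.28 and -0.60 ± 0.22, in the authors' deposited tables. After centring 4 of the 8 had one. The isocitrate lyase gene acu-3 of the glyoxylate cycle stood at 0.76 ± 0.45 with TSA and fell by 2.29 ± 0.32 in the deletion in the deposited tables (difference 3.06 ± 0.56, adjusted p = 3.93e-06). The phosphoenolpyruvate carboxykinase gene acu-6, which serves glucose synthesis from acetate, rose in both, by 1.53 ± 0.46 with TSA and 0.95 ± 0.29 in the deletion, as deposited.

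The lists of the citric acid cycle, amino acid synthesis and acyl-CoA dehydrogenases were added after the values had been seen, so their counts are descriptions of genes already noticed. Of 17 genes with a citric acid cycle symbol 2 rose with TSA (11.8%, beside 5.14% of all genes). In the eaf-3 deletion 8 fell (47.1%, beside 11.5%), and 5 had a positive difference (29.4%, beside 3.04%). By the authors' deposited tables tca-13 stood at 0.73 ± 0.31 with TSA and fell by 2.65 ± 0.48 in the deletion, and tca-11 stood at 1.06 ± 0.39 and fell by 2.77 ± 0.60. The gene tca-3 rose by 0.81 ± 0.22 with TSA and stood at -0.76 ± 0.38 in the deletion, as deposited. Both acd-1 and acd-2 of the 4 acyl-CoA genes had a positive difference, at 1.12 ± 0.50 and 1.24 ± 0.47 with TSA and -1.89 ± 0.46 and -2.0 ± 0.47 in the deletion in the deposited tables.

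Of 56 amino acid synthesis genes 2 rose (3.57%) and 1 fell (1.79%) with TSA, beside 5.14% and 3.62% of all genes. In the eaf-3 deletion 2 rose (3.57%) and 26 fell (46.4%), beside 20.2% and 11.5%. A positive difference passed in 8 (14.3%, beside 3.04%), or 4 with the larger standard error. The ornithine carbamoyltransferase gene arg-12 stood at 0.49 ± 0.33 with TSA and fell by 2.14 ± 0.46 in the deletion in the authors' deposited tables (difference 2.64 ± 0.57, adjusted p = 0.000181). Cytosolic ribosomal protein genes fell in the deletion in 8 of 11 (72.7%, beside 11.5% of all genes), and none passed with TSA. Their median change was -0.21 with TSA and -1.04 in the deletion, and yet none of the 11 differences passed.

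**Figure D5:**
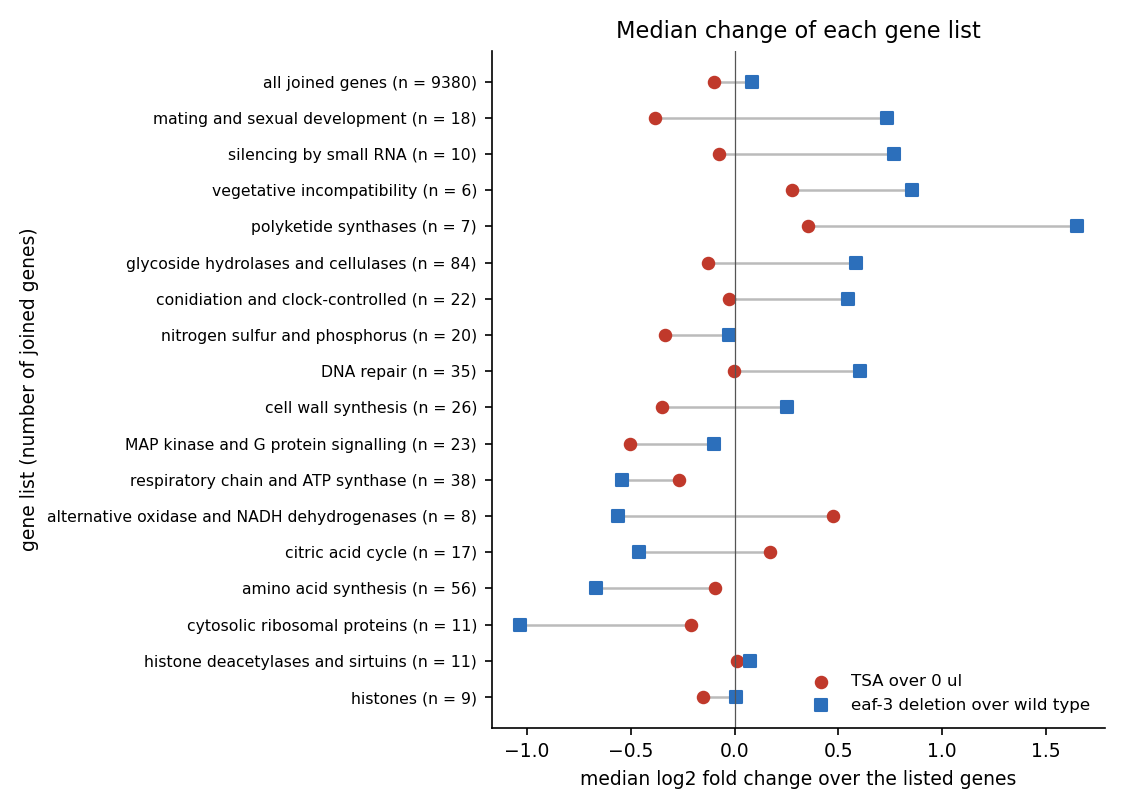
For each gene list the x axis gives the median log2 fold change over its joined genes for 5 ul TSA over 0 ul (red circles) and for the eaf-3 deletion over wild type (blue squares), with the number of genes in brackets. The citric acid cycle and amino acid lists were chosen after values were seen, and the blue median lies right of the red one for the sexual, polyketide and hydrolase lists and left of it for the respiratory, amino acid and ribosomal lists.

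No difference passed in the lists of histone deacetylases and sirtuins, constitutive heterochromatin and histones, which hold 11, 11 and 9 genes, beside 12.2% of all genes. Among the 4 genes deleted in the study the difference passed for eaf-3 itself. Of 11 histone deacetylase and sirtuin genes 3 rose with TSA, and in the authors' deposited tables these were hda-1 (0.94 ± 0.29 with TSA and 0.37 ± 0.16 in the eaf-3 deletion), nst-2 (0.66 ± 0.23 and 0.18 ± 0.22) and nst-7 (1.76 ± 0.55 and 2.51 ± 0.41). In the deletion 3 rose and 1 fell. None of 11 constitutive heterochromatin genes and none of 9 histone genes passed in either table or in the difference. The median change of the histone genes was -0.15 with TSA and 0.00471 in the deletion, the second of which turned to -0.08 after centring. These p-values do not show that the changes were equal.

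Some genes of signalling and of the cell wall fell with TSA. Of 23 MAP kinase and G protein genes 5 fell with TSA, nrc-1, gna-1, gna-2, cot-1 and gul-1, and 1 rose and 3 fell in the eaf-3 deletion. By the authors' deposited tables the kinase gene cot-1 fell by 0.84 ± 0.20 with TSA and stood at -0.10 ± 0.23 in the deletion, and the G protein subunit gene gna-2 fell by 0.78 ± 0.25 and stood at 0.39 ± 0.22. The difference passed for gna-2, gul-1 and mek-1 and not for cot-1 (adjusted p = 0.0996), and that of gul-1 was -0.59 after centring. Of 26 cell wall genes 3 fell with TSA (11.5%, beside 3.62% of all genes), ncw-2, acw-9 and acw-7. In the deletion 8 rose (30.8%) and 3 fell (11.5%), beside 20.2% and 11.5% of all genes. In the deposited tables ncw-2 fell by 1.64 ± 0.50 with TSA and 0.65 ± 0.18 in the deletion, and acw-9 by 1.50 ± 0.40 and 0.83 ± 0.17.

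The remaining lists are given beside the shares over all genes. With TSA 5.14% rose and 3.62% fell, and in the eaf-3 deletion 20.2% rose and 11.5% fell. A positive difference passed in 3.04% and a negative one in 9.13%. Of 35 DNA repair genes 1 rose and 1 fell with TSA, 9 rose in the eaf-3 deletion and 4 had a negative difference, mus-11, mlh-2, mus-41 and msh4 (11.4%), or 2 with the larger standard error. The meiotic gene msh4 stood at -1.55 ± 0.74 with TSA and rose by 2.75 ± 0.32 in the deletion, and mus-41 fell by 1.11 ± 0.23 and stood at 0.49 ± 0.35, in the authors' deposited tables. The ultraviolet endonuclease gene mus-18 rose by 1.48 ± 0.32 with TSA and stood at 0.53 ± 0.40 in the deletion, as deposited. Of 19 carotenoid and light response genes none passed with TSA, 4 rose and 1 fell in the deletion and 1 had a negative difference, the carotenoid oxygenase family gene cao-1. Of 10 antioxidant genes 2 rose with TSA, cat-2 and cat-4, and 1 rose in the deletion. The catalase gene cat-4 rose by 1.64 ± 0.48 with TSA and stood at 0.03 ± 0.31 in the deletion in the deposited tables (difference 1.61 ± 0.57, adjusted p = 0.0429, not passing with the larger standard error). Of 30 proteasome genes 1 rose in the deletion and none had a passing difference, and of 11 heat shock and chaperone genes 1 fell with TSA, grp78, and none had one, or 1 after centring.

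For few genes was one change shown to be small while the other passed. The 95% interval of the TSA change lay within 0.5 of 0 in 88 of 8705 genes, among them 2 of the 1718 that rose in the eaf-3 deletion, NCU04284 and NCU00263, and 17 of the 1044 that fell in it. NCU04284 stood at -0.03 ± 0.23 with TSA and rose by 1.08 ± 0.30 in the deletion in the authors' deposited tables, a difference of -0.94 after centring. The interval of the eaf-3 change lay within 0.5 of 0 in 590 genes, among them 23 of the 764 that passed with TSA. NCU07117 fell by 1.64 ± 0.28 with TSA and stood at 0.02 ± 0.23 in the deletion, and kal-1 fell by 1.65 ± 0.33 and stood at -0.09 ± 0.18, in the deposited tables. The transcription factor gene pp-1 fell by 1.10 ± 0.37 with TSA and stood at -0.05 ± 0.15 in the deletion, as deposited, and its difference did not pass (adjusted p = 0.0645).

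The smallest p-values of the difference, at a deposited average of at least 20, belonged to genes that rose in the eaf-3 deletion and not with TSA, apart from NCU09152 above. NCU01038 stood at -0.22 ± 0.43 with TSA and rose by 6.83 ± 0.39 in the deletion in the authors' deposited tables (difference -7.06 ± 0.58, adjusted p = 1.62e-30). In the deposited tables of sds3, rlp1 and rlp2 it stood at -0.11 ± 0.49, -0.39 ± 0.49 and -0.60 ± 0.49. NCU00118 stood at 0.45 ± 0.40 with TSA and rose by 5.52 ± 0.36 in the deletion, and NCU17053 stood at -0.10 ± 0.28 and rose by 4.92 ± 0.44, as deposited. In the deposited tables of sds3, rlp1 and rlp2 NCU17053 rose as well, by 1.32 ± 0.47, 2.29 ± 0.45 and 3.25 ± 0.45, while NCU00118 passed in none. NCU16805 stood at -0.89 ± 0.58 with TSA and rose by 5.75 ± 0.45 in the deletion, as deposited. The kinase gene stk-36 stood at 1.40 ± 0.79 with TSA and rose by 6.36 ± 0.45 in the deletion in the deposited tables. The kinase gene stk-53 rose in both, by 1.55 ± 0.50 with TSA and by 5.95 ± 0.45 in the deletion, as deposited (difference -4.40 ± 0.67, adjusted p = 1.58e-08). In the other direction NCU00995 stood at 0.73 ± 0.97 with TSA and fell by 6.0 ± 0.47 in the eaf-3 deletion in the authors' deposited tables, beside a fall of 3.38 ± 0.46 without rlp1. It did not pass without sds3, at -0.67 ± 0.46, or without rlp2, at 0.18 ± 0.46, in those deposited tables.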

How the data were processed

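Messenger RNA of 14 libraries in 7 groups was sequenced, and 8 libraries in 4 groups enter the comparison. DESeq2 1.24.0, RSEM 1.3.1 and STAR 2.7.3a were listed, with no role or setting, per the submitters' processing notes. The genome build and whether counting used strand were not given in the sources used here, although the mRNA kit was stranded, per the labels' protocols, so values of overlapping genes and of gene families may share reads.

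Only the authors' own comparison tables were used. Each deposited table holds, per the file headers, an average, a normalised expression signal over libraries that are not named, a log2 fold change with its p-value and adjusted p, and a category score. The authors' score was not used for any call. The number of columns with values per library was 0. Library totals were therefore unknown, and no interval from counts could be made.

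Each deposited log2 fold change was turned into a standard error by dividing its size by the two-sided normal quantile of the p-value. This assumes a normal test of that same fold change, which the sources used here do not state. The difference, TSA change minus eaf-3 change, was tested with a two-sided normal test with the standard errors taken as independent, since the contrasts share no library, and adjusted by Benjamini-Hochberg over 9317 genes. A further 63 joined genes had no standard error. Rose and fell are used of a contrast at a deposited adjusted p under 0.05. The calculation was tested on simulated data.

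Symbols and gene order came from a reference gene table of assembly NC12, which held 9379 of the 9380 genes, 1113 with a symbol. Named genes had a deposited average of at least 20 in both tables and were the 5 with the smallest difference p in each direction, the 8 among those with a symbol, the 6 with the largest smaller change in each class of calls in both tables, and the 5 with the largest change beside a 95% interval within 0.5 of 0 in the other table. Up to 4 members of each list with the smallest difference p, all members of lists of up to 12 genes, the deleted genes and the promoter genes were added at any average. Other members of a list are named where they complete a count, and genes of a run for their place. The members and the lists were chosen with earlier results of these data known. Alternatives were median centring of each table, an average of at least 10, an adjusted p in both tables, an adjusted p under 0.01, a null of a difference up to 1, an absolute change of at least 1, and the larger standard error for both changes. Python 3.11.15, pandas 2.3.3, NumPy 2.4.6, SciPy 1.17.1 and Matplotlib 3.10.9 were used.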

Additional observations from a re-analysis of the deposited data

How the results depend on the processing

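The count of positive differences moved from 283 to 472 after centring, to 122 at an adjusted p under 0.01, to 22 against a null of a difference up to 1 and to 176 with the larger standard error. The count of negative differences moved from 851 to 501 at an adjusted p under 0.01 and to 276 against that null. It was 716 at an average of at least 10, 807 with an adjusted p in both tables, 699 after centring, 596 with the larger standard error, and, in alternatives chosen after seeing the data, 733 without chromosome ends and 661 with standard errors under 1. At a deposited adjusted p under 0.01 genes higher in both fell to 141, lower in both to 12, higher with TSA and lower in the deletion to 6, and lower with TSA and higher in the deletion to 23. With absolute changes of at least 1 in both, 12 were lower in both and 11 higher with TSA and lower in the deletion. After centring the class of genes higher with TSA and lower in the deletion held 33. The cause was not tested, beyond that stricter thresholds pass fewer genes. No named gene reversed. Among the genes named by rule, 8 no longer passed after centring, 7 newly passed and 212 kept their call, and with the larger standard error 19 no longer passed and 208 kept their call. No paired analysis was possible because the deposited tables hold no value per library. For the same reason leaving out a replicate was not run, and depth, outlying libraries and swapped labels could not be examined.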
